A study of Homo sapiens with 19 samples.

Results

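The genes described here are 10 genes whose proteins carry a JmjC domain, the fold shared by a large class of histone lysine demethylases: KDM2A, KDM2B, KDM3A, KDM4A, KDM4B, KDM4C, KDM5A, KDM5B, KDM6B and JMJD6. They were taken by symbol from a count table of 23441 genes, together with the HIF binding peaks near their start sites. All 10 were found, and all 10 passed the filter on low counts, as did 14225 genes in all. The table holds 19 further genes with a JmjC domain, which are given only as a comparison.

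The cells were 786-O, a cell line established from clear cell renal cancer. The line lacks functional VHL, the protein that directs HIF-α subunits to degradation, so HIF-2α accumulates in it with oxygen present, and its own HIF1A transcripts are truncated. Pools of these cells, not clones, had been transduced with an empty virus (pRRL; control cells), with full-length HIF-1α (pRRL-HIF-1α; HIF-1α cells) or with additional HIF-2α (pRRL-HIF-2α; HIF-2α cells). HIF-α was made from a viral cassette that also encodes EGFP, not from its own locus, and all pools share the VHL defect and the line's own HIF-2α. PolyA-selected RNA of each pool was sequenced in 3 libraries, 9 in all, and chromatin was immunoprecipitated for HIF-1α, HIF-2α or HIF-1β, which gave 7 lists of peaks with 1 library each. HIF-1α was precipitated from the HIF-1α cells alone.

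JmjC demethylases hydroxylate the methyl group of a histone lysine with iron, oxygen and 2-oxoglutarate as cofactor and cosubstrates, and the hydroxylated methyl group is then lost as formaldehyde. They belong to the same enzyme superfamily as the prolyl hydroxylases that mark HIF-α for VHL. KDM3A and KDM4B are textbook hypoxia-induced members of the class, with HIF binding described at their promoters, and several genes that act on histone methylation are recurrently mutated in clear cell renal carcinoma.

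In the RNA, 6 of the 10 genes (KDM2A, KDM3A, KDM4B, KDM5A, KDM5B and KDM6B) had a higher level in each of the 3 libraries of HIF-1α cells than in any control library, as had 12.9% of all tested genes. The difference was 1.48-fold to 2.34-fold when the replicate number was fitted as a block. In HIF-2α cells 0 of the 10 had libraries that were all above or all below the control libraries, where 6.0% and 5.19% of all tested genes had them. KDM4A and JMJD6 stayed near their control level in both. In the chromatin of HIF-1α cells, HIF-1α had a peak within 10 kb of an annotated start site at 8 of the 10 genes, all but KDM4A and KDM5A, and at 34.6% of all placed genes. By the test across all genes, edgeR called KDM3A and KDM6B higher in HIF-1α cells under the block, where 5.41% of all genes were called higher, and 0 of the 10 without it, where 0 genes were called.

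The library totals ranged from 27852754 to 54287621 counts. HIF1A, the first check on the labels, was at 171, 1682 and 473 CPM (read counts scaled to the normalised library total) in replicates 1, 2 and 3 of the HIF-1α cells, at 15.3, 30.4 and 17.5 CPM in the HIF-2α cells and at 30.4, 36.7 and 152 CPM in the control cells. EPAS1, which encodes HIF-2α, was at 946, 3244 and 880 CPM in the HIF-2α cells and at 456, 224 and 162 CPM in the control cells. In the HIF-1α cells EPAS1 was at 575, 627 and 397 CPM, above the control library of the same number in each pair. Whether this bears on the results in HIF-1α cells was not tested. Control replicate 3 thus stood apart with HIF1A close to the level of HIF-1α replicate 1, and CA9, a classical HIF-1α target, was at 14.3 CPM in it against 0 and 0.171 CPM in the other control libraries. In HIF-1α cells CA9 was at 8.46, 177 and 68.3 CPM, so that HIF-1α replicate 1 also stood apart from the other libraries of its pool and lay below control replicate 3. The counts of genes whose libraries do not overlap are therefore also given without control replicate 3. So are the edgeR calls with the block in HIF-1α cells against control. DESeq2 was not run without control replicate 3, and the part of this library in the other results was not tested. HIF1A was called higher in HIF-1α cells under the block (log2 fold change 3.12, SE 0.71, adjusted p of 0.0418 by edgeR), and EPAS1 was not called in HIF-2α cells (2.48, SE 0.46, adjusted p of 0.0690). PAX8, a marker of renal epithelium, was at 175 to 364 CPM in every library. Of the leukocyte markers CD3E was at 0 in every library, PTPRC stayed at or below 0.0853 CPM and CD14 reached 0.689 CPM. Of the 3 endothelial markers CDH5 and VWF stayed at or below 0.155 CPM and PECAM1 reached 0.838 CPM, like CD14 in HIF-1α replicate 3. Of the fibroblast markers COL1A1 reached 7.58 CPM, LUM 10.4 CPM and PDGFRB 1.51 CPM. COL1A2 stayed at or below 0.0853 CPM and DCN at or below 0.261 CPM. Whether fibroblasts were present, and any part of theirs in the results, was not tested. In RNA from bulk cells, fewer cells that express a gene and less RNA per cell cannot be told apart.

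The binding data come first, since they place the genes. A peak was counted at a gene when its midpoint lay within 10 kb of any annotated start site of that gene, and every peak is a window of 2500 bp without a height. HIF-1α in HIF-1α cells had such a peak at 8 of the 10 genes. Of the 13778 tested genes that could be placed on the GRCh37 build, 34.6% had one. HIF-1β, the shared partner of both α subunits, had a peak at 8 of the 10 in the same cells (40.8% of all placed genes), at 7 in control cells (25.7%) and at 6 in HIF-2α cells (16.1%). HIF-2α had a peak at 2 in control cells (5.31%), at 3 in HIF-1α cells (4.20%) and at 5 in HIF-2α cells (14.5%). There was 1 library per list, so none of these counts has a replicate check, and no test was made.

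KDM4B (chr19:4969124-5153609, plus strand), which removes methyl groups from H3K9, was the gene of the 10 with a peak in every one of the 7 lists. The midpoints lay between the start site itself and 951 bp upstream of it. KDM3A (chr2:86667770-86719839, plus strand), also an H3K9 demethylase, had 1 peak in every list but that of HIF-2α in HIF-1α cells. Its peaks lay from 258 bp upstream to 263 bp downstream of a start site. At these 2 genes HIF-2α was already listed in the control cells.

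KDM2B, KDM6B and JMJD6 had a HIF-2α peak in HIF-2α cells but none in control cells, and for KDM2B and KDM6B HIF-2α was also listed in HIF-1α cells. KDM2B (chr12:121866899-122018928, minus strand), which removes methyl groups from H3K36 and is part of a Polycomb complex, had 4 HIF-1β peaks in control cells and 2 HIF-1α peaks in HIF-1α cells. The HIF-1α peaks were 6 bp upstream of the outermost start site and 2950 bp downstream of an internal one. KDM6B (chr17:7737535-7758114, plus strand), an H3K27 demethylase, had 3 HIF-1α peaks, at 1034 bp, 1741 bp and 37 bp downstream of 3 different start sites, more than any other of the 10 genes. JMJD6 (chr17:74708914-74722881, minus strand), a JmjC oxygenase whose activity on histone arginines is debated, had 1 HIF-1α peak, 27 bp downstream of a start site in the 5′ exon.

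KDM2A, KDM4C and KDM5B had HIF-1α and HIF-1β peaks and no HIF-2α peak in any of the 3 pools. KDM2A (chr11:66886734-67025553, plus strand), the paralogue of KDM2B, had peaks in HIF-1α cells alone, 136 bp (HIF-1α) and 42 bp (HIF-1β) downstream of a start site. KDM4C (chr9:6720863-7175648, plus strand), of the KDM4B family, had a HIF-1α peak whose midpoint fell on an annotated start site, and a HIF-1β peak within 391 bp of a start site in all 3 pools. KDM5B (chr1:202693623-202777615, minus strand), an H3K4 demethylase, had its HIF-1α peak 3190 bp upstream, outside the gene, and the HIF-1β peak of the same cells 1299 bp upstream.

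KDM4A (chr1:44115820-44171189, plus strand) and KDM5A (chr12:389223-498486, minus strand) had no peak of any list within 10 kb. The HIF-1α peak nearest to KDM4A lay 16.8 kb from its nearest start site, beyond the 3′ end of the gene. For KDM5A, the nearest peak of any list within 50 kb was a HIF-1β peak of control cells, at 40.3 kb. At each of the 8 genes with HIF-1α binding, a HIF-1α peak shared at least 1 base with one of HIF-1β from those cells, and at 7 of them at least 50% of the window. All 5 genes with a HIF-2α peak in HIF-2α cells had a HIF-1α peak in HIF-1α cells that overlapped it.

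**Figure D1:**
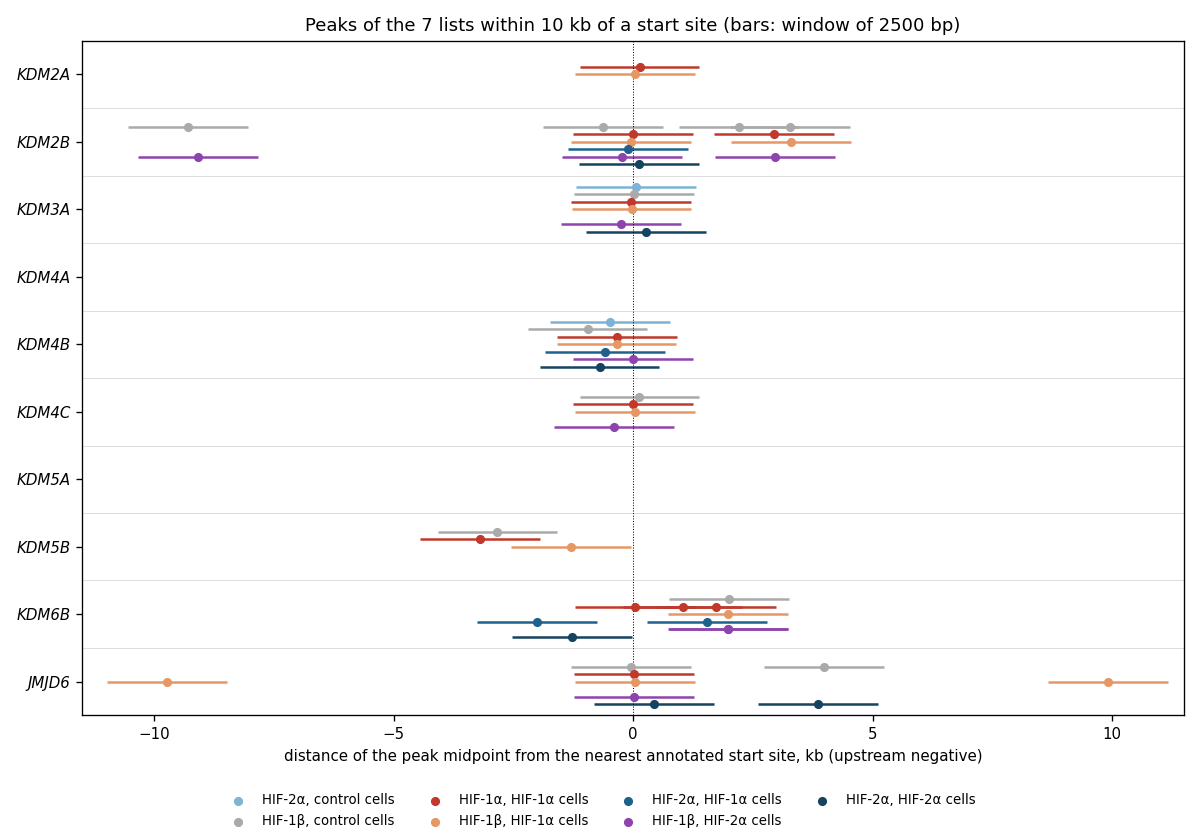
Peaks of the 7 lists at the 10 genes, by distance of the midpoint from the nearest annotated start site in kb (upstream negative), with 1 colour per antiserum and pool and bars for the window of 2500 bp. KDM4B has a peak in all 7 lists, KDM4A and KDM5A in none, and the 3 HIF-1α peaks of KDM6B belong to 3 different start sites.

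HIF dimers bind a short core, and the letters searched were ACGTG and GCGTG on both strands, in the 300 bp around the midpoint of each peak. A palindrome CACGTG counts once on each strand. Of all HIF-1α peaks, 65.4% held a core in this window, against 59.2% of windows of the same length at the 5′ ends of the placed genes and 45.7% of windows at HIF-2α peaks of HIF-2α cells. Of the 11 HIF-1α peaks within 10 kb of the 10 genes, 9 held a core, at 6 genes. The windows of KDM2A and KDM5B held none within 300 bp, although each peak of 2500 bp held 6 to 18 cores. Such matches are a description of the letters and not of bound sites. The bases around the core nearest to the midpoint are shown for the peak nearest to a start site of each of 4 genes, in the direction of transcription and with the core in capitals. They lie at chr2:86668458-86668482 (KDM3A), chr9:6758062-6758086 (KDM4C), chr12:122018912-122018936 (KDM2B) and chr17:74722844-74722868 (JMJD6).
KDM3A: gggaggctgtGCGTGtcttgtgaga
KDM4C: ggtcctgtgcGCGTGcgcagcgaac
KDM2B: tatttcctgtACGTGtgtgtgtcca
JMJD6: gacgcagccgACGTGaccttcccaa
The first 3 of these cores lay 12 bp, 29 bp and 10 bp from the midpoint of the peak, and that of JMJD6 122 bp away.

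The most cores in 300 bp were held by KDM4B, with 5, and by the third peak of KDM6B, with 4. Both windows are shown whole because each holds the palindrome CACGTG. The window of KDM4B, at chr19:4968637-4968936, lies upstream of the gene, and that of KDM6B, at chr17:7747413-7747712, has its midpoint in the exon of a non-coding transcript. The capitals mark the cores on either strand.
KDM4B: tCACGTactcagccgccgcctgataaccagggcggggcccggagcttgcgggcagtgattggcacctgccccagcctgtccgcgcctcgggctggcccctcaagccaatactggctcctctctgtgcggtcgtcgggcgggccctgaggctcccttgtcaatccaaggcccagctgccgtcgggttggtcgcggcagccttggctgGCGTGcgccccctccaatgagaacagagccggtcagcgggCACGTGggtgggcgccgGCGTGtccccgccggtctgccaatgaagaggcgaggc
KDM6B: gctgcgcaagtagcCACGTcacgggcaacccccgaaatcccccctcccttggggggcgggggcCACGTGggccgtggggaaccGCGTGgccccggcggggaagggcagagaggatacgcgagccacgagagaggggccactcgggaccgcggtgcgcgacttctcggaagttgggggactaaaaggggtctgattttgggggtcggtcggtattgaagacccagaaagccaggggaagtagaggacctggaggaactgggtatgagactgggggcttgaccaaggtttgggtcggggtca
In KDM4B, 3 cores read on the strand of the gene and 2 on the other, and in KDM6B 2 on each. The other KDM6B peaks held 1 and 2 cores, and the internal peak of KDM2B held 3.

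Levels of different genes were compared only per length, as CPM per kb of merged exons in control cells. KDM4A had the highest level, at 12.9 ± 2.34 CPM per kb (SD, n = 3), and JMJD6 the next at 10.1 ± 0.875. Their libraries overlapped. KDM2A followed at 7.07 ± 0.802 and did not overlap either neighbour. The other 7 genes lay between 3.53 ± 0.671 (KDM5A) and 1.53 ± 0.341 (KDM5B), and each overlapped its neighbours in the order. The order depended on the length used. With that of the longest annotated transcript KDM2A (9.94 CPM per kb) overlapped JMJD6 (10.9), JMJD6 no longer overlapped KDM4A (14.9), KDM2B moved from 3.05 to 6.23 and KDM4B from 2.37 to 6.13, and KDM6B (2.54) was lowest.

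**Figure D2:**
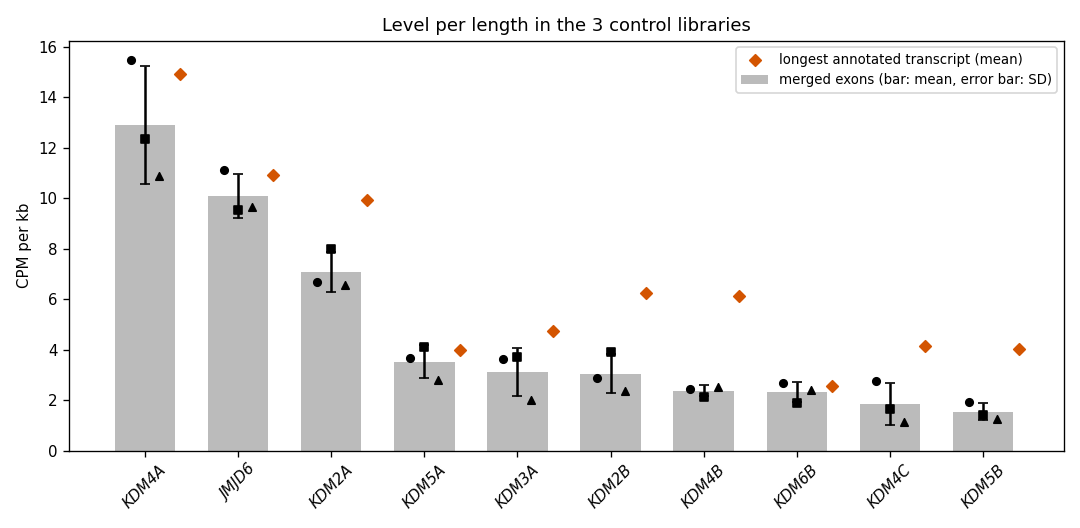
Level per length of the 10 genes in the 3 control libraries, in CPM per kb. Bars are means over merged exons with the SD, points are libraries (circle, square and triangle for replicates 1, 2 and 3), and diamonds are the means with the longest annotated transcript. KDM4A and JMJD6 stand above the others and KDM5B is lowest by merged exons at 1.53 CPM per kb.

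The first comparison asked what full-length HIF-1α does to these transcripts. The test was edgeR's quasi-likelihood test over all tested genes with Benjamini-Hochberg adjustment at 0.05, with the pool as the only term. It called 0 of the 14225 genes and 0 of the 10, although at an unadjusted p under 0.05 it put 1586 genes higher (11.1%) and 1171 lower (8.23%), with 6 of the 10 among the first and 0 among the second. The replicate numbers of the labels pair the libraries, and with the number as a block edgeR called 769 genes higher (5.41%) and 363 lower (2.55%). Of the 10 genes, 2 were called higher in that fit, KDM3A and KDM6B. DESeq2 without the block called 506 genes higher (3.55%) and 247 lower (1.73%), with KDM5B and KDM6B among the higher. DESeq2 with the block called 1651 higher (11.8%) and 1385 lower (9.92%), and among the higher were KDM2A, KDM3A, KDM4C, KDM5A, KDM5B and KDM6B. None of these 4 fits called any of the 10 lower.

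Among the H3K9 demethylases, KDM3A was at 67.4, 101 and 63.9 CPM in HIF-1α cells and at 48.4, 49.1 and 26.7 CPM in control cells. Every HIF-1α library was above every control library. The log2 fold change was 0.91 with the block (SE 0.19, adjusted p of 0.0371 by edgeR), a 1.88-fold higher level, and 0.90 without it (SE 0.32, adjusted p of 0.194). Within replicate numbers the ratio was 1.39, 2.05 and 2.39. KDM3A was above control in 3 of 3 pairs. Without control replicate 3 the blocked log2 fold change was 0.76 (adjusted p of 0.153 by edgeR), and with each of the 9 libraries left out in turn the blocked call was kept in 2 cases, those without control replicate 1 and without HIF-2α replicate 2.

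KDM4B was at 40.1, 69.9 and 49.4 CPM in HIF-1α cells and at 36.2, 31.4 and 37.3 CPM in control cells. The groups did not overlap, but HIF-1α replicate 1 was just above the highest control library. Its log2 fold change was 0.57 with the block (SE 0.23, adjusted p of 0.129 by edgeR) and it was not called by edgeR or DESeq2, with or without the block. KDM4C was at 28.6, 46.1 and 24.8 CPM against 28.5, 17.1 and 11.7 CPM. The control library of replicate 1 lay among the HIF-1α libraries, and in that pair the ratio was 1.00, against 2.70 and 2.13 in the other pairs. KDM4C was called by DESeq2 with the block (adjusted p of 0.0250) but not by edgeR with it (log2 fold change 0.85, SE 0.26, adjusted p of 0.0697).

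KDM4A, which acts on H3K9 and H3K36, was at 76.8, 57.4 and 67.6 CPM in HIF-1α cells and at 80.2, 64.1 and 56.4 CPM in control cells. The 2 groups covered the same range. The blocked log2 fold change was 0.02, with a 95% interval of -0.35 to 0.39. Within the KDM4 family the point estimates of KDM4B and KDM4C were thus above that of KDM4A, a difference between genes that was not tested.

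Of the H3K36 demethylases, KDM2A was at 101, 141 and 99.7 CPM in HIF-1α cells and at 69.2, 83.0 and 68.0 CPM in control cells. The groups did not overlap, and the ratios within replicate numbers were close to each other, at 1.45, 1.70 and 1.47. The blocked log2 fold change was 0.62 (SE 0.17), which missed the threshold by edgeR (adjusted p of 0.0517) and was called by DESeq2 with the block (adjusted p of 0.0159). KDM2B was at 37.3, 98.3 and 37.7 CPM against 39.2, 53.3 and 32.2 CPM. Replicate 2 was the highest library of each group, and the blocked log2 fold change was 0.37 (SE 0.22, adjusted p of 0.272 by edgeR). When HIF-1α replicate 2 was left out, the value went from 0.47 to -0.18 without the block, and from 0.37 to 0.035 with it. KDM2B overlaps RNF34 on the opposite strand by 1528 bp. The library kit keeps strand, but whether reads were counted by strand is not given in the sources used here.

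Of the H3K4 demethylases, KDM5B was at 49.5, 85.9 and 118 CPM in HIF-1α cells and at 47.7, 35.5 and 31.4 CPM in control cells. The groups did not overlap, yet in replicate 1 the levels were nearly equal, with a ratio of 1.04 against 2.42 and 3.77. The blocked log2 fold change was 1.10 (SE 0.32, adjusted p of 0.0610 by edgeR), while DESeq2 called KDM5B without the block (adjusted p of 0.0392) and with it (0.0109). KDM5A was at 55.3, 68.2 and 67.9 CPM against 44.2, 49.4 and 33.6 CPM, again without overlap. Its blocked log2 fold change of 0.60 (SE 0.18) had an adjusted p of 0.0685 by edgeR and of 0.0374 by DESeq2 with the block. KDM5A shares 48 bp with CCDC77 on the opposite strand.

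KDM6B had the largest point estimate of the 10 in both edgeR fits. It was at 29.8, 45.7 and 48.1 CPM in HIF-1α cells and at 19.8, 13.9 and 17.6 CPM in control cells. The lowest HIF-1α library was well clear of the highest control library, and the ratios within replicate numbers were 1.503, 3.30 and 2.73. The log2 fold change was 1.22 with the block (SE 0.27, adjusted p of 0.0394 by edgeR), a 2.34-fold higher level, and 1.27 without it (SE 0.32, adjusted p of 0.149), and DESeq2 called it with and without the block. Without control replicate 3 the blocked value was 1.04 (adjusted p of 0.155 by edgeR). The blocked call was kept in 3 of the 9 fits with a library left out, those without control replicate 1, HIF-2α replicate 2 or HIF-2α replicate 3. Both edgeR calls therefore ended when HIF-1α replicate 1, 2 or 3, control replicate 2 or 3, or HIF-2α replicate 1 was left out. Leaving out control replicate 1 raised the calls in general, to 1333 higher genes over all genes instead of 769 and to 6 of the 10 instead of 2. Most other fits lost calls over all genes. Without control replicate 2 or 3, HIF-1α replicate 2 or HIF-2α replicate 1, edgeR with the block called 0 genes higher. It called 194 without HIF-1α replicate 1, 31 without HIF-1α replicate 3, 596 without HIF-2α replicate 2 and 393 without HIF-2α replicate 3.

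JMJD6 was at 44.4, 71.5 and 50.2 CPM in HIF-1α cells and at 66.2, 56.9 and 57.5 CPM in control cells. The HIF-1α libraries lay on both sides of the control libraries. The blocked log2 fold change was -0.14, with a 95% interval of -0.61 to 0.33.

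**Figure D3:**
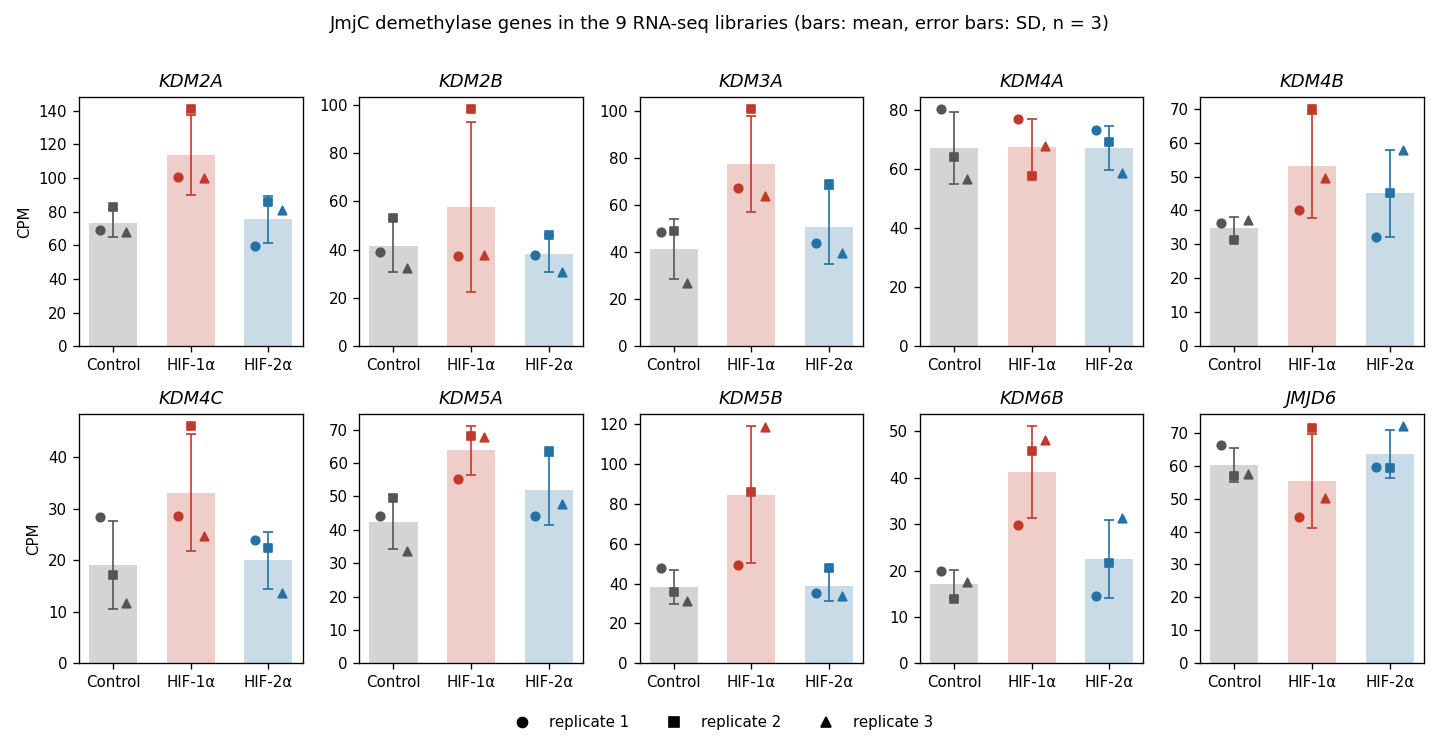
Level of the 10 genes in CPM in the 3 libraries of each pool, with the mean as a bar and the SD as an error bar. For KDM2A, KDM3A, KDM4B, KDM5A, KDM5B and KDM6B the 3 libraries of HIF-1α cells all lie above the 3 control libraries, while those of HIF-2α cells overlap control for every gene.

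As a group, 6 of the 10 genes had HIF-1α libraries that were all above the control libraries, as had 12.9% of all tested genes, and 0 were all below (11.2%). Without control replicate 3, the same 6 genes were above, against 17.6% of all genes. In 7 of the 10 the level was higher in all 3 pairs of replicate numbers (29.0% of all genes), KDM4C being the seventh. The median blocked log2 fold change of the 10 was 0.61, beside 0.04 over all tested genes. It was 0.17 over the 18 other tested genes with a JmjC domain. The 10 genes were chosen with earlier results of these data known, and their contrast with all genes was not tested. In 9 of the 10 the pair of replicate 1 had the lowest ratio, as in 34.9% of all genes, KDM4A being the exception. The same ratio for HIF1A was 5.64 in the pair of replicate 1, 45.8 in that of replicate 2 and 3.12 in that of replicate 3, and whether the levels of HIF1A bear on this order was not tested. Within the HIF-1α cells, 7 of the 10 genes were highest in replicate 2, as were 28.2% of all genes, KDM5B and KDM6B being highest in replicate 3 and KDM4A in replicate 1.

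The second comparison asked what more HIF-2α does in the same cells, and it uses the same 3 control libraries as the first. None of the 10 was called by edgeR or DESeq2, with or without the block, and the smallest adjusted p of the 10 was 0.486 with the block and 0.844 without it, by edgeR. Over all genes edgeR called 0 without the block, where the unadjusted p was under 0.05 for 476 higher genes (3.35%) and 362 lower genes (2.54%) and for 0 of the 10. With the block it called 16 higher (0.112%) and 22 lower (0.155%). DESeq2 called 36 higher (0.229%) and 29 lower (0.184%) without the block, and 268 (1.87%) and 219 (1.53%) with it. Libraries that were all above control were seen in 6.0% of all genes and libraries all below in 5.19%, and in 0 of the 10 either way. Without control replicate 3 these shares were 8.08% and 7.59%, again with 0 of the 10. A higher level in all 3 pairs was seen in 19.7% of all genes and in 0 of the 10. The median blocked log2 fold change of the 10 was 0.09.

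KDM3A and KDM4B, where control cells already had a listed HIF-2α peak, had point estimates above 0. The paper reports HIF-2α signal below its threshold in control cells at many sites newly listed in HIF-2α cells. A missing peak thus need not mean absent binding. KDM3A was at 43.9, 69.1 and 39.6 CPM in HIF-2α cells, around the control levels of 48.4, 49.1 and 26.7 CPM. Its blocked log2 fold change was 0.29, with a 95% interval of -0.14 to 0.73. KDM4B was at 32.3, 45.04 and 57.8 CPM against 36.2, 31.4 and 37.3 CPM in control cells, with a log2 fold change of 0.33 (-0.20 to 0.85). In both genes replicates 2 and 3 were above their control library and replicate 1 was below.

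KDM6B, with a HIF-2α peak in HIF-2α cells, was at 14.5, 21.5 and 31.3 CPM, against 19.8, 13.9 and 17.6 CPM in control cells. The groups overlapped, and the blocked log2 fold change was 0.32 (95% interval -0.28 to 0.92). JMJD6, at 59.6, 59.1 and 72.0 CPM, and KDM2B, at 37.6, 46.3 and 30.9 CPM, also had a HIF-2α peak there, with blocked log2 fold changes of 0.07 and -0.10. KDM2B was the gene of the 10 that was lower in all 3 pairs, by ratios of 0.959, 0.869 and 0.960 (19.4% of all genes were lower in all 3), and its libraries overlapped those of control cells.

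Of the genes without a HIF-2α peak, KDM5A was at 44.1, 63.5 and 47.8 CPM, with a blocked log2 fold change of 0.28 (-0.13 to 0.69). KDM2A was at 59.6, 85.6 and 81.2 CPM, KDM4A at 73.2, 69.0 and 58.7 CPM, KDM4C at 24.03, 22.4 and 13.7 CPM and KDM5B at 35.1, 47.7 and 33.8 CPM, with blocked log2 fold changes of 0.03, 0.01, 0.10 and 0.00. All of them overlapped the control libraries. The intervals of the 10 genes leave room for changes up to 0.92 on the log2 scale, so that moderate rises could have been missed with these libraries.

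**Figure D4:**
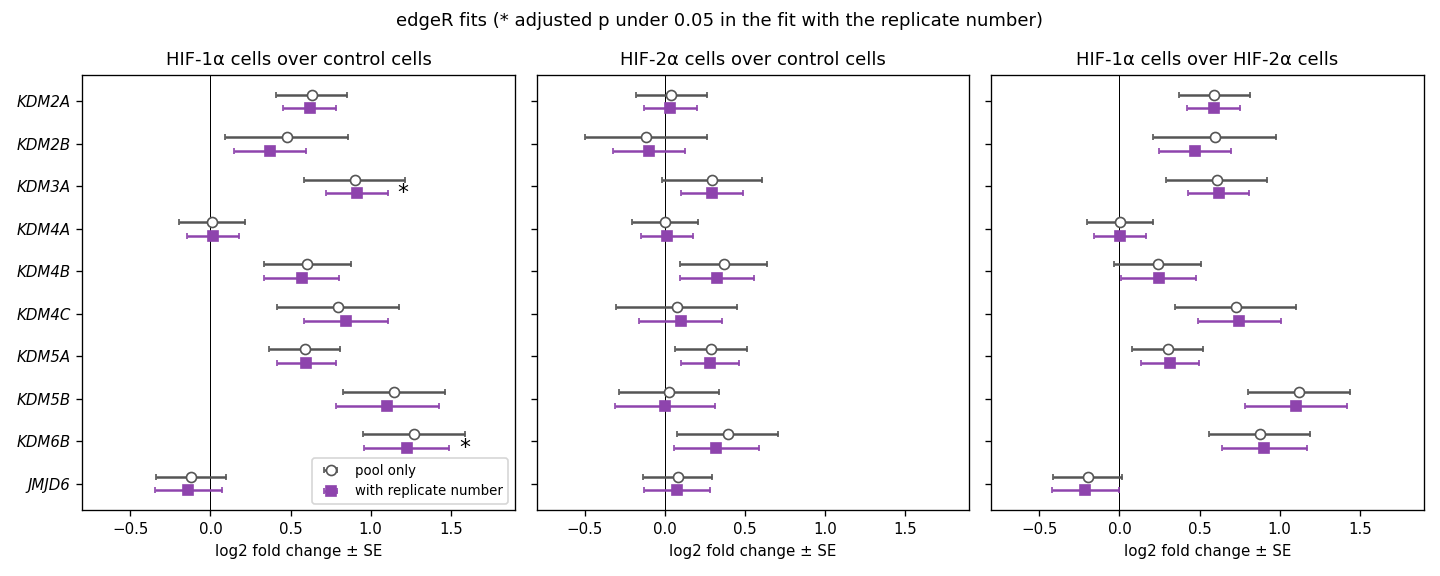
Log2 fold change with its SE for the 10 genes in the 3 comparisons, by edgeR with the pool alone (open circles) and with the replicate number added (filled squares), with a star at an adjusted p under 0.05 in the latter. KDM3A (0.91) and KDM6B (1.22) carry the star against control cells in HIF-1α cells, and no gene does in the other 2 comparisons.

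The direct comparison of HIF-1α cells with HIF-2α cells tested whether the 2 effects differ. edgeR called 4 genes higher and 3 lower without the block (0.0281% and 0.0211% of all genes) and 646 higher and 197 lower with it (4.54% and 1.38%), and none of the 10 in either fit. The smallest adjusted p of the 10 with the block was 0.0720, for KDM2A, with a log2 fold change of 0.59 (SE 0.17). KDM5B had a log2 fold change of 1.10 (SE 0.32, adjusted p of 0.0758), KDM6B of 0.90 (SE 0.26, 0.0795) and KDM3A of 0.62 (SE 0.19, 0.0955). DESeq2 called KDM5B higher without the block, where 3.44% of all genes were called higher and 0.998% lower. With the block it called KDM2A, KDM5B and KDM6B, beside 7.95% of all genes higher and 4.29% lower. The libraries of HIF-1α cells were all above those of HIF-2α cells for KDM2A, KDM4C and KDM5B, 3 of the 10, as for 10.4% of all genes, and all below for 0 of the 10 (8.82%). The level was higher in all 3 pairs for 6 of the 10 (25.3%). That KDM3A and KDM6B rose in HIF-1α cells and were not called in HIF-2α cells is thus not a difference that edgeR called between the 2 pools, and in KDM4B the 2 effects differed by 0.25 (95% interval -0.28 to 0.77).

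**Figure D5:**
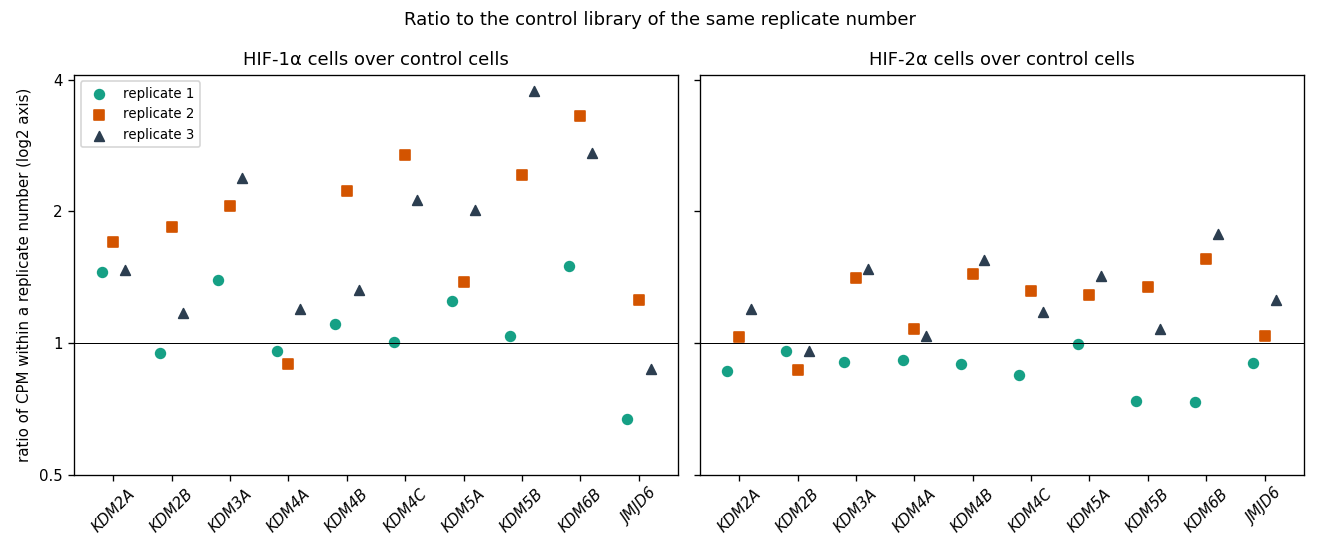
Ratio of each library of HIF-1α cells (left) or HIF-2α cells (right) to the control library of the same replicate number, on a log2 axis, for the 10 genes. In the left panel 7 genes have all 3 ratios above 1 and replicate 1 is lowest in 9 genes. In the right panel the ratios lie on both sides of 1 for 9 genes and below it for KDM2B. Replicate 1 is lowest in 9 genes there too, and the 2 panels share their control libraries.

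Binding and level can be set side by side for the 10 genes. Of the 8 genes with a HIF-1α peak, 5 had HIF-1α libraries that were all above control (KDM2A, KDM3A, KDM4B, KDM5B and KDM6B), and 3 did not (KDM2B, KDM4C and JMJD6). Of the 2 genes without one, KDM5A was all above control and KDM4A overlapped it. Of all tested genes, with or without a peak, 12.9% were all above control. The share among all genes with a HIF-1α peak was not computed. Whether binding and level go together was not tested. JMJD6 shares its HIF-1α peak with the start of METTL23, on the other strand, at 0.178 kb from the midpoint, and METTL23 had a blocked log2 fold change of -0.06 (SE 0.19, adjusted p of 0.850 by edgeR) in HIF-1α cells. Start sites of SRSF2 (9.009 kb) and MFSD11 (9.213 kb) also lie within 10 kb of this peak. Their values were -0.68 (SE 0.32, adjusted p of 0.167 by edgeR) and -0.20 (SE 0.21, adjusted p of 0.520). The HIF-1α peak of KDM5B lies 0.715 kb from a start site of PCAT6, a long non-coding RNA on the other strand at a mean of 1.02 CPM, whose value was 1.10 (SE 0.49, adjusted p of 0.151).

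The replicate number was itself a source of variation. With the pool in the model, edgeR called 2190 genes (15.4%) as differing between replicate numbers, and of the 10 genes KDM2B alone (adjusted p of 0.0414). Relative to replicate 1, KDM2B was higher by 0.72 in replicate 2 and lower, at -0.20, in replicate 3 on the log2 scale. KDM3A missed the threshold (adjusted p of 0.0548).

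Across the 9 libraries, 36 of the 45 pairs of the 10 genes had a Pearson correlation of log2 CPM above 0, with a median of 0.53. The highest was 0.92, between KDM3A and KDM5A, and the lowest -0.50, between KDM4A and KDM4B. These are descriptions: the points share pools, replicate numbers and control libraries. Among 10669 genes, those most like KDM3A in these 9 libraries were OXSR1 (r of 0.982), LMLN (0.975) and RALGAPA2 (0.974). PANX1 (0.977), MXI1 (0.927) and ABL1 (0.921) were most like KDM4B, and SLC41A1 (0.959), LGALSL (0.953) and TLN1 (0.953) most like KDM4C.

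Of the 19 further genes with a JmjC domain, 18 were tested, and in HIF-1α cells 1 was called higher and 0 lower by edgeR with the block, which called 5.41% of all genes higher. Their median log2 fold change was 0.17. The gene called was KDM7A, an H3K9 and H3K27 demethylase, at 35.2, 39.1 and 26.6 CPM against 24.1, 8.53 and 4.64 CPM in control cells, with a log2 fold change of 1.67 (SE 0.39, adjusted p of 0.0419). The flavin-dependent demethylases KDM1A and KDM1B, which need no 2-oxoglutarate, were not called, and KDM1A had a log2 fold change of -0.25 (SE 0.18, adjusted p of 0.351 by edgeR). In HIF-2α cells no gene of either list was called by edgeR with the block. The smallest p there were those of KDM7A (1.16, SE 0.38, adjusted p of 0.244) and KDM1B (-0.26, SE 0.22, adjusted p of 0.593).

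On the opposing side, 2 of 20 genes of histone lysine methyltransferases and their Polycomb partners were called higher in HIF-1α cells by edgeR with the block, and 0 lower, with a median of 0.26, beside 5.41% of all genes called higher. They were KMT2A (log2 fold change 0.76, SE 0.17, adjusted p of 0.0405) and KMT2C (0.94, SE 0.21, adjusted p of 0.0412), both H3K4 methyltransferases. The TET enzymes, which oxidise methylcytosine in DNA with the same cofactor and cosubstrates, had 2 of 3 genes called higher in the same fit. TET2 was at 19.3, 34.3 and 23.5 CPM in HIF-1α cells against 10.5, 17.3 and 10.2 CPM, with a log2 fold change of 1.02 (SE 0.20, adjusted p of 0.0354 by edgeR). TET1, near the bottom of the range, was at 1.67, 5.69 and 4.10 CPM against 0.647, 1.11 and 0.834 CPM (2.06, SE 0.41, adjusted p of 0.0358 by edgeR). edgeR made none of these calls on KDM7A, KMT2A, KMT2C, TET1 and TET2 without the block, and DESeq2 without it called TET1 alone of the 5. In HIF-2α cells edgeR with the block called no methyltransferase or TET gene, and the smallest p were those of KMT2C (0.81, SE 0.21, adjusted p of 0.174) and TET1 (-0.59, SE 0.43, adjusted p of 0.535). TET1 was higher in HIF-1α cells than in HIF-2α cells (2.65, SE 0.43, adjusted p of 0.0108 by edgeR with the block).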

How the data were processed

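RNA-seq (9 libraries, 3 per pool) and ChIP-seq peaks (7 lists) of 786-O pools were analysed. Per the labels and methods, the deposited values are whole read counts of each gene, from reads aligned to GRCh37 with TopHat2 2.0.8b and Bowtie 1.0.0 and counted with HTSeq 0.5.4p3 on UCSC genes. Peaks came from reads aligned with BWA 0.7.5a-r405, as positions that T-PIC and MACS both called and a count filter kept, deposited as windows of equal length without scores. Counts entered edgeR 4.0.16 (R 4.3.3; TMM factors, filterByExpr, quasi-likelihood test, all 9 libraries in 1 fit, pool as the term). CPM use TMM factors. DESeq2 1.42.0, other size factors, no filter and left-out libraries were alternatives. Separate cultures are not stated for the replicates, so p-values measure only the spread between libraries. Deviations from pool means correlated at 0.348 to 0.652 in 9 pairs of libraries with 1 number and at -0.478 to 0.0281 in 18 pairs with different numbers, so the numbers pair the libraries. Correlations used log2 CPM with a prior count of 2. Symbols were placed on GENCODE annotation lifted to GRCh37, 20654 by symbol and 1399 by an older symbol, and 1388 were not placed. The sequence was read from GRCh37 with pysam 0.24.0. Fits were tested on simulated data. The members, lists and named genes (all members, HIF subunits, genes of each list past the threshold or with the smallest p, the 3 genes most correlated with KDM3A, KDM4B and KDM4C, and neighbours at a shared peak) were chosen with earlier results of these data known.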

Additional observations from a re-analysis of the deposited data

How the results depend on the processing

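The 10 genes and 3 comparisons give 30 log2 fold changes. With the replicate block, 28 of them kept their direction and call and 2 gained a call, and with DESeq2 25 did, with 3 gained calls, and with DESeq2 and the block 18 did, with 9 gained. RLE size factors, no filter on low counts and a fit of only the 2 pools compared left 28, 27 and 28 as they were, and every other change was a change of sign. In HIF-1α cells against control the genes called higher were 769 with the block, 506 with DESeq2 and 1651 with DESeq2 and the block, those called lower 363, 247 and 1385, and of the 10 genes 2, 2 and 6. In HIF-2α cells against control those settings called 16, 36 and 268 higher and 22, 29 and 219 lower, no filter 1 higher and the 2 pools alone 2 higher. Between HIF-1α and HIF-2α cells they called 646, 503 and 1168 higher and 197, 146 and 631 lower, no filter 72 and 10, the 2 pools alone 0 and 0, and DESeq2 called 1 of the 10 genes without and 3 with the block. By replicate number DESeq2 called 3963 genes and 3 of the 10. KDM4A, near 0 throughout, changed sign in HIF-1α cells against control to -0.0201 (DESeq2), -0.0112 (DESeq2 with the block), -0.00948 (RLE), -0.0199 (no filter) and -0.00658 (2 pools). Against HIF-2α cells it was -0.0204, -0.0209, -0.0121, -0.0161 and -0.00293, and in HIF-2α cells against control -0.00382 without the filter, where KDM5B was -0.00065 by DESeq2 with the block.

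With each library left out, with and without the block, HIF-1α cells against control gave 0 to 1333 genes higher, 0 to 1075 lower and 0 to 6 of the 10. KDM2B ran from -0.18 to 0.71, KDM4A from -0.11 to 0.15 and JMJD6 from -0.42 to 0.024, while KDM2A, KDM3A, KDM4B, KDM4C, KDM5A, KDM5B and KDM6B were above 0 in all 18 fits. HIF-2α cells against control gave 0 to 59 genes higher and 0 to 54 lower, with KDM2A at -0.10 to 0.19, KDM2B at -0.29 to 0.10, KDM4A at -0.11 to 0.15, KDM4C at -0.19 to 0.48, KDM5B at -0.22 to 0.43 and JMJD6 at -0.067 to 0.25. HIF-1α against HIF-2α cells gave 0 to 659 genes higher, 0 to 231 lower and 0 to 2 of the 10, with KDM2B at -0.060 to 0.82, KDM4A at -0.11 to 0.089 and KDM4B at -0.046 to 0.43. The fits under the block with a library left out and the count without control replicate 3 were chosen after seeing the data, and the cause of these changes was not tested. With the longest transcript the level per kb was 9.94 for KDM2A, 6.23 for KDM2B, 4.74 for KDM3A, 6.13 for KDM4B, 4.15 for KDM4C and 4.03 for KDM5B. The HIF-1α list had a peak at 8 of the 10 genes within 5 kb (31.5% of placed genes), at 9 within 50 kb (50.6%) and at 7 by the 5′ end alone (30.1%). With 3 libraries a pool, moderate changes could be missed. With 1 library per peak list and no heights, differences in binding strength could not be tested.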
